A study of Zea mays with 12 samples.

Results

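Maize zeins fall into alpha, beta, gamma and delta classes, and the 5 genes described here are those of the beta, gamma and delta classes: zp15 (GRMZM2G086294, the 15 kDa beta zein), zp16 (GRMZM2G060429, the 16 kDa gamma zein), zp27 (GRMZM2G138727, the 27 kDa gamma zein), zp50 (GRMZM2G138689, the 50 kDa gamma zein) and 1 delta zein, GRMZM2G100018. They were chosen by gene identifier, and all 5 were found among the 34348 genes measured. GRMZM2G100018 was taken up under the name 10 kDa delta zein, but the RefSeq gene table (assembly Zm-B73-REFERENCE-NAM-5.0) pairs this identifier with dzs18, the 18 kDa delta zein. No identifier in the data matched that table's dzs10 entry, so the gene is called dzs18 here. In the order of genes in the RefSeq table, zp27 and zp50 are neighbours with 0 other genes between them. The 27 kDa locus is known to carry near-identical tandem copies in some maize lines, and the data have a single row for it, so reads of such copies cannot be told apart.

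Zeins are the prolamin storage proteins of the maize kernel. They are made on the endoplasmic reticulum of starchy endosperm cells and packed into protein bodies inside it. The cysteine-rich gamma and beta zeins start these bodies and form their outer shell, and the alpha and delta zeins fill the core. The bZIP factor Opaque2 and the prolamin-box binding factor bind zein promoters, each favouring some classes.

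Poly(A) RNA was sequenced from whole endosperm, 16 days after pollination. The plants were of the inbred W22, grown in the field and selfed. There were 3 groups of 4 biological replicates: nkd2-Ds and nkd1-Ds, which carry a Ds transposon insertion in nkd2 or in nkd1, and WT. Naked endosperm1 (nkd1) and naked endosperm2 (nkd2) encode related INDETERMINATE domain zinc finger transcription factors, known for roles in aleurone cell fate and endosperm maturation. The labels name 1 insertion for each mutant group, and nothing in the labels ties replicates to separate ears, so p-values measure the spread between these samples.

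Levels are RPKM, reads scaled to a length given to each gene and to a library factor, as deposited by the authors. Whole reads recovered from the values summed to 35.3 to 48.0 megareads per library. The targeted transcripts were checked first. The nkd2 transcript was at 1.14 ± 0.141 RPKM in nkd2-Ds, 1.10 ± 0.0780 RPKM in the libraries labelled nkd1-Ds and 19.5 ± 0.762 RPKM in WT (SD, n = 4 each). The nkd1 transcript was at 35.1 ± 1.57 RPKM in nkd2-Ds, 12.8 ± 1.08 RPKM in the libraries labelled nkd1-Ds and 49.2 ± 3.41 RPKM in WT. The nkd2 transcript was thus as low in the libraries labelled nkd1-Ds as in nkd2-Ds, against a label that names nkd1 alone, and each comparison below goes by the label. All 4 starchy endosperm markers looked for (sh2, bt2, wx1 and ae1) were present, and their summed level was 7625 to 8657 RPKM in nkd2-Ds, 6998 to 8340 RPKM in the libraries labelled nkd1-Ds, against 9283 to 9840 RPKM in WT. The embryo markers that could be matched (3 of 4) summed to 31.0 to 61.5 RPKM in nkd2-Ds, 16.3 to 19.9 RPKM in the libraries labelled nkd1-Ds, against 14.7 to 16.1 RPKM in WT. The aleurone markers (3 of 5 matched) summed to 137.5 to 274.5, 55.0 to 86.4 and 97.5 to 112.7 RPKM in the same order of groups. None of these matched markers was at 0 in all 4 libraries of a group. The basal transfer layer markers (3 of 5 matched) summed to 12.7 to 133.0 RPKM in nkd2-Ds, 41.4 to 76.9 RPKM in the libraries labelled nkd1-Ds, against 28.7 to 140.7 RPKM in WT, and those of photosynthesis and pericarp (2 of 5 matched) stayed between 1.15 and 2.01 RPKM in all libraries. The starchy endosperm, embryo and aleurone lists moved with genotype, and their part in the zein results was not tested. In whole endosperm, fewer cells of a type and less RNA per cell cannot be told apart.

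zp15, the beta zein of the protein body shell, had 37264, 25307, 24351 and 25456 RPKM in the nkd2-Ds libraries, replicates 1 to 4. It had 16619, 14282, 16149 and 15543 in the libraries labelled nkd1-Ds, and 34430, 29879, 27823 and 36258 RPKM in WT. The libraries labelled nkd1-Ds were below every other library, and nkd2-Ds overlapped WT.

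zp16, a gamma zein related in sequence to zp27, had 34477, 24245, 21117 and 20699 RPKM in nkd2-Ds, 18804, 16099, 16960 and 16087 in the libraries labelled nkd1-Ds, and 24088, 25780, 24317 and 30428 RPKM in WT. The libraries labelled nkd1-Ds were again the 4 lowest, with a narrower gap to the next library than for zp15.

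zp27 is the major gamma zein and is known for its part in starting protein bodies. It had 39929, 28592, 28313 and 26925 RPKM in nkd2-Ds, 21680, 19392, 17182 and 18280 in the libraries labelled nkd1-Ds, and 17470, 17708, 17788 and 18559 RPKM in WT. Every nkd2-Ds library was above every other library, and the libraries labelled nkd1-Ds overlapped WT.

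zp50, the largest gamma zein, had 12458, 9558, 7177 and 7802 RPKM in nkd2-Ds, 4372, 4032, 3811 and 4612 in the libraries labelled nkd1-Ds, and 7732, 7542, 7766 and 7220 RPKM in WT. It was lowest in the libraries labelled nkd1-Ds, without overlap, while the nkd2-Ds libraries lay on both sides of WT.

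dzs18, a methionine-rich delta zein of the protein body core, had 89.7, 80.7, 47.3 and 44.0 RPKM in nkd2-Ds, 67.0, 59.1, 51.2 and 55.8 in the libraries labelled nkd1-Ds, and 82.9, 108.7, 145.1 and 149.8 RPKM in WT. Replicates 3 and 4 were the high ones in WT and the low ones in nkd2-Ds, and replicate 1 of nkd2-Ds lay above replicate 1 of WT. In both groups replicates 3 and 4 were also closer to each other over all genes than to the others; the labels name no batch, and the part of this split in the dzs18 values was not tested. Between 1133 and 3698 reads per library stood behind dzs18, so counting error is small beside these differences.

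**Figure D1:**
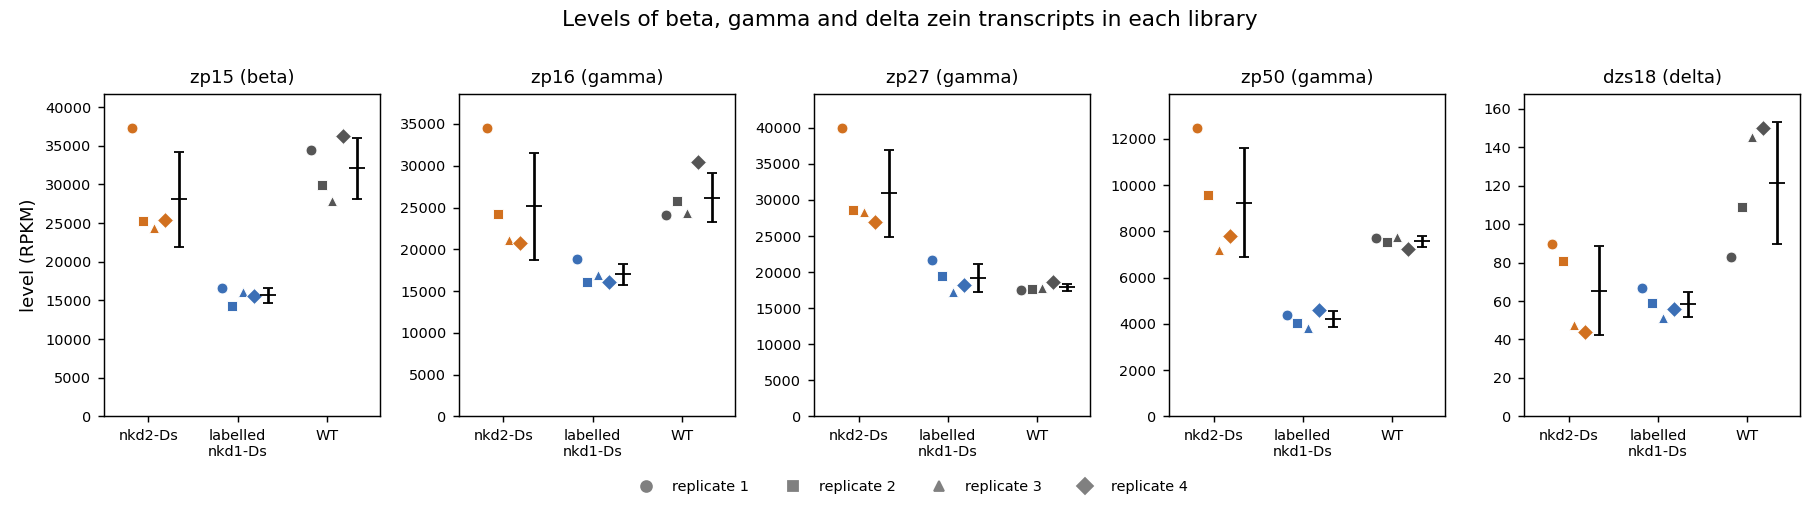
Level of each of the 5 zein transcripts in each library (RPKM, one panel per gene with its own axis), with replicates as points and the group mean ± SD as a black bar (n = 4). The libraries labelled nkd1-Ds are the lowest for zp15, zp16 and zp50, and nkd2-Ds is the highest for zp27; replicate 1 is the highest nkd2-Ds library in all 5 panels.

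Per length, the order of the 5 genes differed between genotypes. In nkd2-Ds zp27 averaged 30940 ± 6037 RPKM, zp15 28095 ± 6133, zp16 25135 ± 6426, zp50 9249 ± 2365 and dzs18 65.4 ± 23.2 RPKM (SD, n = 4). The ranges of zp27 and zp15 overlapped, as did those of zp15 and zp16, although each pair stood in this order in 4 of 4 libraries. In the libraries labelled nkd1-Ds the order was zp27 at 19133 ± 1923, zp16 at 16988 ± 1278, zp15 at 15648 ± 1012, zp50 at 4207 ± 355 and dzs18 at 58.3 ± 6.63 RPKM, and the ranges of zp27 and zp16 and those of zp16 and zp15 overlapped. In WT the order was zp15 at 32097 ± 3914, zp16 at 26153 ± 2947, zp27 at 17881 ± 472, zp50 at 7565 ± 250.0 and dzs18 at 121.6 ± 31.7 RPKM, with overlap only between zp15 and zp16.

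Among all 34348 genes, ranked by group mean RPKM, zp27 was at rank 7 in nkd2-Ds, 6 in the libraries labelled nkd1-Ds and 15 in WT. zp15 was at rank 8, 9 and 7 and zp16 at rank 9, 7 and 8 in the same order of groups. zp50 was at rank 19, 20 and 20. dzs18 was far below, at rank 870, 1023 and 449.

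The spread between replicates also differed by gene and group. The coefficient of variation of zp27 was 19.5% in nkd2-Ds, 10.05% in the libraries labelled nkd1-Ds and 2.64% in WT, and that of zp50 was 25.6%, 8.44% and 3.30%. dzs18 varied by 35.4%, 11.4% and 26.1%. In nkd2-Ds, replicate 1 was the highest library for all 5 genes.

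The RPKM scale divides zp27 by the largest length of the 5. The steps between values put this length at 2118 bases, against 950 for zp15, 1076 for zp16, 1315 for zp50 and 835 for dzs18. These are the lengths the deposited values were divided by, and their match to the transcripts was not tested. By reads, without division by length, zp27 was the first of the 5 in each group, with 4.76% ± 0.290 of all reads in nkd2-Ds, 3.88% ± 0.229 in the libraries labelled nkd1-Ds and 2.49% ± 0.158 in WT (SD, n = 4). All 5 genes together took 9.53% ± 0.598 of reads in nkd2-Ds, 7.59% ± 0.287 in the libraries labelled nkd1-Ds and 7.001% ± 0.607 in WT. The alpha zeins, matched as 24 genes by RefSeq name, took 32.7% ± 5.51, 20.7% ± 0.714 and 38.0% ± 3.67 in the same order. The 5 genes thus made up 20.3% to 26.0% of zein reads in nkd2-Ds, 25.5% to 27.6% in the libraries labelled nkd1-Ds, against 12.7% to 17.8% in WT. Both mutant groups lay wholly above WT in this share, and they overlapped each other.

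Within the summed RPKM of the 5 genes, zp27 was 33.2% ± 1.24 in nkd2-Ds, 34.1% ± 1.90 in the libraries labelled nkd1-Ds and 21.4% ± 1.22 in WT. zp15 was 30.1% ± 1.07, 28.0% ± 1.498 and 38.2% ± 2.38 in the same order of groups. zp16 was 26.8% ± 1.10, 30.3% ± 0.807 and 31.2% ± 1.75, and zp50 was 9.85% ± 0.843, 7.52% ± 0.651 and 9.08% ± 0.918. The 3 gamma zeins together were 69.8% ± 1.06 in nkd2-Ds, 71.9% ± 1.49 in the libraries labelled nkd1-Ds and 61.6% ± 2.35 in WT. A larger zp27 share and a smaller zp15 share set both mutant groups apart from WT.

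**Figure D2:**
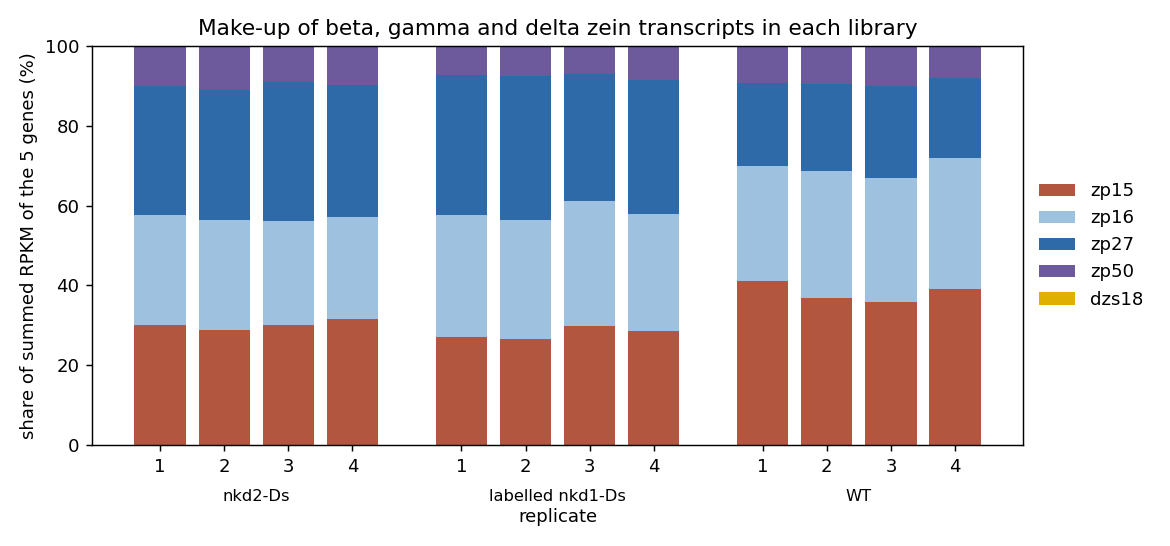
Share of each gene in the summed RPKM of the 5 zein genes (percent), one stacked bar per library, grouped by genotype. The zp27 part is larger and the zp15 part smaller in nkd2-Ds and in the libraries labelled nkd1-Ds than in WT, and dzs18, under 1% in each library, is too thin to see.

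The first comparison set the libraries labelled nkd1-Ds against WT. The beta zein, the delta zein and 2 of the 3 gamma zeins were lower, and zp27 was not called: 4 of 5 genes fell and 0 rose. Of the 26706 genes tested, 55.7% were called in either direction and 29.2% were called lower (limma on log2(RPKM + 1), adjusted p under 0.05). The median log2 difference was -0.85 over the 5 genes and -0.02 over all genes tested. After quantile normalization 2 of the 5 genes fell and 1 rose, where 28.8% of all genes were called lower and 27.2% higher.

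zp15 fell by 1.03 ± 0.230 on the log2 scale (SE; 0.490-fold; limma adjusted p = 0.00195), and dzs18 fell by 1.02 ± 0.232 (0.494-fold; limma adjusted p = 0.00226). After quantile normalization, which sets values by rank alone, zp15 fell by only 0.24 (limma adjusted p = 0.0323) and dzs18 by 0.90 (limma adjusted p = 0.00340). zp50 fell by 0.85 ± 0.175 (0.555-fold; limma adjusted p = 0.00110), but its log2 difference was -0.16 and no longer called after quantile normalization. zp16 fell by 0.62 ± 0.232 (0.651-fold; limma adjusted p = 0.0365), with a difference of 0.27, not called, after quantile normalization. The zp16 call was also lost when any 1 of 7 of the 12 libraries was left out (nkd2-Ds replicate 2, and replicates 2, 3 and 4 of both other groups), with log2 differences of -0.67 to -0.54 over all 12. These 4 genes did not overlap between the groups, as was the case for 26.6% of all genes tested in the lower direction.

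zp27 differed by 0.09 on the log2 scale between the libraries labelled nkd1-Ds and WT, with a 95% interval of -0.37 to 0.56 (limma adjusted p = 0.737). The size of this difference, and whether it was called, depend on what the libraries are scaled to. The deposited library factors level out most genes rather than the read totals, and scaling by total reads instead moves the median of all genes by 0.43 in this comparison. On that scale zp27 was higher by 0.64 (limma adjusted p = 0.000145), or by 0.21 relative to the shifted median. The same scaling put the log2 differences at -0.48 for zp15, -0.07 for zp16, -0.30 for zp50 and -0.48 for dzs18, or at -0.91, -0.50, -0.73 and -0.90 in the same order of genes relative to the shifted median. Of all calls in this comparison, 47.6% were higher on the deposited scale, 89.1% on total reads and 77.6% when scaled to RPKM outside the zeins.

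The second comparison set nkd2-Ds against WT. zp27 rose and dzs18 fell, and zp15, zp16 and zp50 were not called: 1 of 5 genes was called higher and 1 lower, where 25.5% of the genes tested were called, 12% higher and 13.6% lower. The median log2 difference was -0.08 over the 5 genes and -0.01 over all genes tested. Both comparisons so far share the WT libraries.

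zp27 rose by 0.77 ± 0.215 on the log2 scale, a 1.71-fold difference (95% interval 0.31 to 1.24; limma adjusted p = 0.0183), with no overlap between the groups, as for 11.9% of genes tested in the higher direction. The highest value was that of nkd2-Ds replicate 1, and without that library the log2 difference was 0.64 (limma adjusted p = 0.0210). The zp27 call was lost without WT replicate 3 (limma adjusted p = 0.0510) and without the filter on low genes (limma adjusted p = 0.176). dzs18 fell by 0.91 ± 0.232 (0.531-fold; limma adjusted p = 0.0110) with overlapping groups, and by 1.09 without that library (limma adjusted p = 0.00376).

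zp15 differed by -0.21 on the log2 scale (95% interval -0.70 to 0.29), zp16 by -0.08 (95% interval -0.58 to 0.42) and zp50 by 0.26 (95% interval -0.12 to 0.64), with limma adjusted p of 0.557, 0.835 and 0.318. The intervals for zp15, zp16 and zp50 all hold differences in either direction. Scaling by total reads moves the median of all genes by 0.12 here and puts zp50 at 0.42, then called higher, and zp27 at 0.94. Of all calls, 46.9% were higher on the deposited scale, 72.4% on total reads and 66.5% when scaled to RPKM outside the zeins.

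The third comparison set nkd2-Ds against the libraries labelled nkd1-Ds. zp15, zp27 and zp50 were higher in nkd2-Ds, zp27 with the opposite sign after quantile normalization, and 0 of the 5 genes were lower, where 41.8% of the genes tested were called, 21.6% higher and 20.2% lower. The median log2 difference was 0.68 over the 5 genes and 0.02 over all genes tested. This comparison shares its libraries with the others.

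zp50 was higher by 1.11 ± 0.175 on the log2 scale, the largest of the 5 differences here (2.15-fold; limma adjusted p = 0.000285), and by 0.42 after quantile normalization (limma adjusted p = 0.0340). zp15 was higher by 0.82 ± 0.230 (1.77-fold; limma adjusted p = 0.0119), a call lost without the filter on low genes and, at 0.12, after quantile normalization. zp27 was higher by 0.68 ± 0.215 (1.60-fold; limma adjusted p = 0.0220), but its difference turned to -0.34 after quantile normalization, which gives the genes of each rank the same value in every library. That call was also lost without any 1 of replicates 2, 3 and 4 of the libraries labelled nkd1-Ds. zp16 stood at 0.54 ± 0.232 and missed the threshold (limma adjusted p = 0.0805), although the 2 groups did not overlap, as for 19.5% of genes tested in the higher direction; after quantile normalization it stood at -0.24, not called. dzs18 stood at 0.10 (95% interval -0.40 to 0.60; limma adjusted p = 0.753). Scaling by total reads moves the median of all genes by -0.30 and puts zp15 at 0.44, zp16 at 0.15, zp27 at 0.30, zp50 at 0.72 and dzs18 at -0.28. Of all calls, 51.6% were higher on the deposited scale, 10.2% on total reads and 23.3% when scaled to RPKM outside the zeins.

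**Figure D3:**
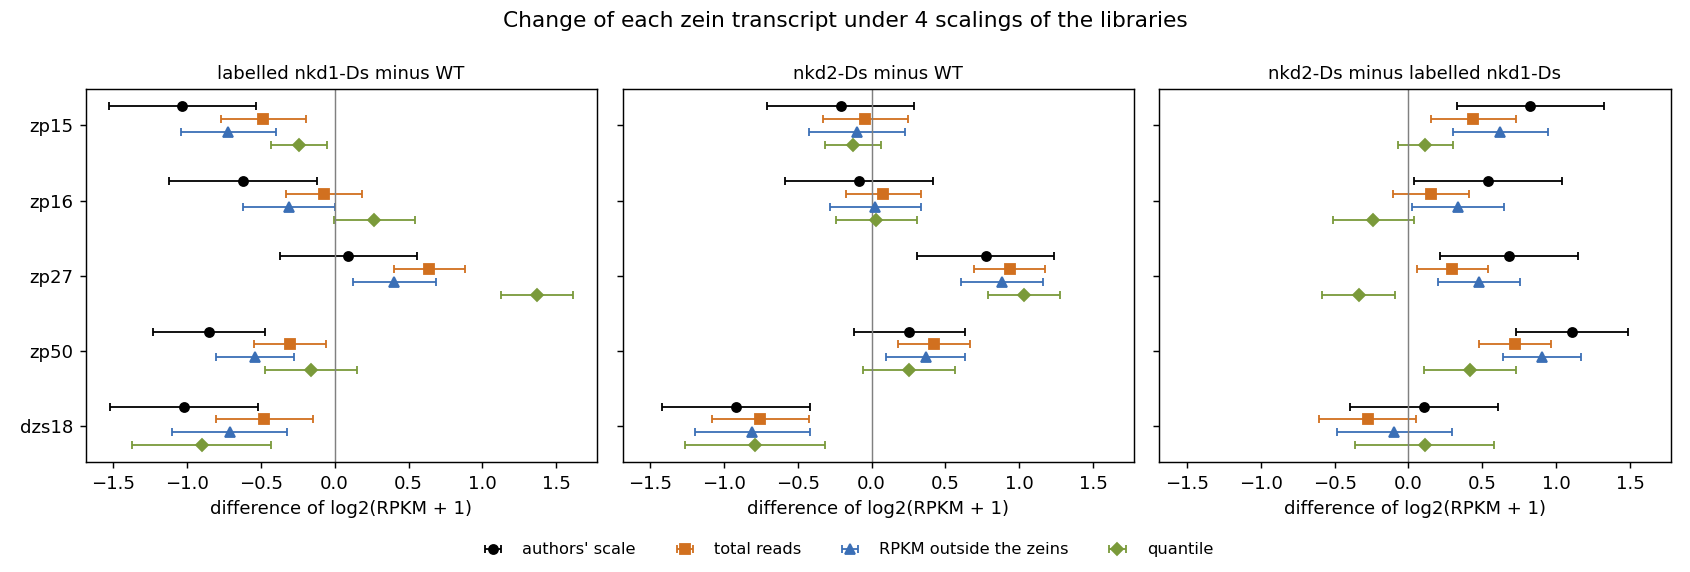
Log2 differences of the 5 zein transcripts in the 3 comparisons, with 95% intervals from limma on log2(RPKM + 1). On the deposited scale zp15, zp16, zp50 and dzs18 lie below 0 in the libraries labelled nkd1-Ds against WT (zp16 lies above 0 after quantile normalization), and only zp27 lies above 0 with its whole interval in nkd2-Ds against WT.

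Ratios between 2 transcripts of the same library do not depend on the library factor. zp15 over zp27, the beta shell zein relative to the main gamma zein, was 0.933, 0.885, 0.860 and 0.945 in nkd2-Ds, 0.767, 0.736, 0.940 and 0.850 in the libraries labelled nkd1-Ds, and 1.97, 1.69, 1.56 and 1.95 in WT. Per length, zp27 exceeded zp15 in each mutant library, and zp15 exceeded zp27 in each WT library. By reads, without division by length, zp27 exceeded zp15 in each WT library too, so this crossing depends on the lengths used for RPKM. zp50 over zp27 was 0.312, 0.334, 0.253 and 0.290 in nkd2-Ds, 0.202, 0.208, 0.222 and 0.252 in the libraries labelled nkd1-Ds, and 0.443, 0.426, 0.437 and 0.389 in WT. These 3 groups did not overlap in any pair.

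Relative to zp27, each of the other 4 transcripts was lower in both mutant groups than in WT. The log2 differences of the ratio between the libraries labelled nkd1-Ds and WT were -1.12 ± 0.114 for zp15, -0.71 ± 0.0805 for zp16, -0.94 ± 0.0830 for zp50 and -1.12 ± 0.186 for dzs18 (SE, n = 4 each). Between nkd2-Ds and WT they were -0.98 ± 0.0879 for zp15, -0.86 ± 0.0797 for zp16, -0.52 ± 0.0951 for zp50 and -1.70 ± 0.264 for dzs18. Each of these 8 differences had an exact permutation p of 0.0286, two-sided, the smallest that 4 against 4 allows, and 0.0429 after Benjamini-Hochberg adjustment over 15 tests. A ratio shows unequal change of its 2 transcripts and not which of them moved. All 8 differences share zp27 as the denominator, so they are not independent of each other. On the deposited scale zp27 itself differed from WT by 0.77 in nkd2-Ds, where the median of all genes was -0.01. In the libraries labelled nkd1-Ds these values were 0.09 and -0.02. How many of all genes fell relative to zp27 was not computed.

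The mutant groups differed from each other in the ratios of zp50 and dzs18. zp50 over zp27 was 0.297 ± 0.0344 in nkd2-Ds and 0.221 ± 0.0226 in the libraries labelled nkd1-Ds, a log2 difference of 0.43 ± 0.111 (exact permutation p = 0.0286, adjusted p = 0.0429). dzs18 over zp27 was 0.00209 ± 0.000561 in nkd2-Ds and 0.00304 ± 4.47e-05 in the libraries labelled nkd1-Ds, against 0.00678 ± 0.00165 in WT; the mutant groups differed by -0.58 ± 0.188 on the log2 scale (exact permutation p = 0.0286, adjusted p = 0.0429). The zp15 and zp16 ratios overlapped between the mutant groups, with log2 differences of 0.14 ± 0.0853 and -0.14 ± 0.0744 (exact permutation p = 0.143 and adjusted p = 0.153 for each).

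dzs18 over zp15 sets a core zein against a shell zein. It was 0.00241, 0.00319, 0.00194 and 0.00173 in nkd2-Ds, 0.00403, 0.00414, 0.00317 and 0.00359 in the libraries labelled nkd1-Ds, and 0.00241, 0.00364, 0.00521 and 0.00413 in WT. The libraries labelled nkd1-Ds lay inside the WT range, with a log2 difference of 0.00 ± 0.250 (exact permutation p = 0.971, adjusted p = 0.971). nkd2-Ds differed from WT by -0.72 ± 0.304 and from the libraries labelled nkd1-Ds by -0.72 ± 0.213 on the log2 scale, with overlap in each case (exact permutation p = 0.0571 and adjusted p = 0.0714 for each).

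**Figure D4:**
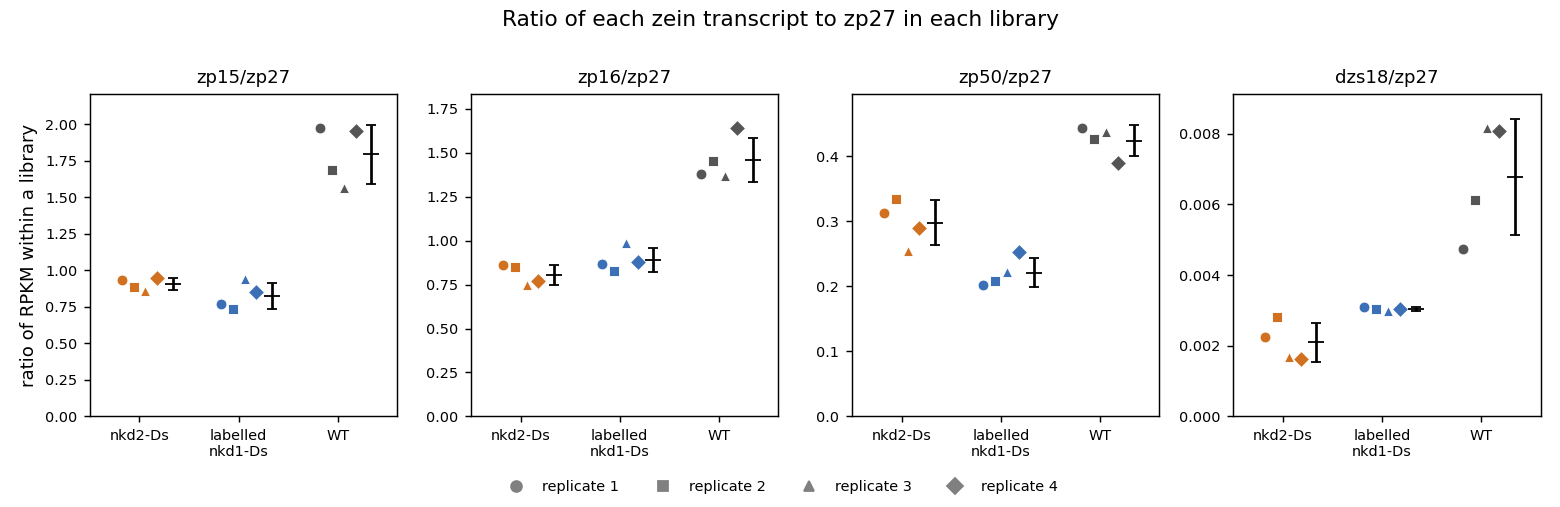
Ratio of zp15, zp16, zp50 and dzs18 to zp27 within each library (RPKM over RPKM, one panel per ratio, axes from 0), with replicates as points and the mean ± SD as a black bar (n = 4). In each panel both mutant groups lie below the 4 WT libraries.

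Against the alpha zeins, the core proteins that make up most of the zein, the 5 genes had a summed RPKM ratio of 0.269 ± 0.0415 in nkd2-Ds, 0.326 ± 0.0191 in the libraries labelled nkd1-Ds and 0.188 ± 0.0333 in WT (SD, n = 4). zp27 alone had a ratio to the alpha zeins of 0.0895 ± 0.0159 in nkd2-Ds, 0.111 ± 0.00477 in the libraries labelled nkd1-Ds and 0.0400 ± 0.00640 in WT. Neither mutant group overlapped WT in either ratio. Of the 24 alpha zein genes, 20 were called lower and 0 higher in the libraries labelled nkd1-Ds against WT, with a median log2 difference of -0.86, where 29.2% of all genes tested were called lower. In nkd2-Ds against WT 1 was called lower and 0 higher, with a median of -0.22 and 13.6% of all genes called lower, and in nkd2-Ds against the libraries labelled nkd1-Ds 15 were called higher and 0 lower, with a median of 0.83 and 21.6% of all genes called higher. After quantile normalization the alpha counts were 3 higher and 9 lower, 0 higher and 2 lower, and 9 higher and 2 lower in these 3 comparisons. Of all genes, 27.2% were then called higher and 28.8% lower, 12% and 13.4%, and 21.5% and 20.8%. On total reads the alpha counts were 0 higher and 10 lower, 0 higher and 1 lower, and 12 higher and 0 lower. Of all genes, 61.4% were called higher and 7.47% lower on that scale, 12.1% and 4.6%, and 5.32% and 46.9%. Alpha zein genes are near-identical copies of each other. How reads shared by copies were counted is not given, and both single rows and their summed level depend on it.

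Other genes that act on zeins or in the protein body were taken as a list of 19 symbols, of which 13 could be matched, as 14 gene identifiers, all tested. In the libraries labelled nkd1-Ds against WT, 6 of 14 were called higher and 4 lower, with a median log2 difference of 0.03, where 26.5% of all genes tested were called higher and 29.2% lower; on total reads 10 were higher and 3 lower, where 61.4% of all genes were called higher and 7.47% lower. In nkd2-Ds against WT, 4 were called higher and 3 lower, with a median of 0.04, where 12% and 13.6% of all genes were called; on total reads 4 were higher and 2 lower, where 12.1% and 4.6% of all genes were. In nkd2-Ds against the libraries labelled nkd1-Ds, 3 were called higher and 5 lower, with a median of 0.01, where 21.6% and 20.2% of all genes were called; on total reads 1 was higher and 7 lower, where 5.32% and 46.9% of all genes were. The list includes nkd1 and nkd2 themselves.

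The transcripts of 2 direct activators of zein genes moved in opposite directions. Opaque2 (o2) was at 353.6 ± 62.3 RPKM in nkd2-Ds, 371.8 ± 11.8 RPKM in the libraries labelled nkd1-Ds and 264.5 ± 11.3 RPKM in WT (SD, n = 4). It rose by 0.40 on the log2 scale in nkd2-Ds (limma adjusted p = 0.0110) and by 0.49 in the libraries labelled nkd1-Ds (limma adjusted p = 0.00117), each against WT. The table gives the prolamin-box binding factor pbf1 2 identifiers. The more abundant, GRMZM2G146283, was at 73.0 ± 6.57 RPKM in nkd2-Ds, 53.5 ± 4.95 RPKM in the libraries labelled nkd1-Ds and 103.3 ± 7.43 RPKM in WT, and fell by 0.50 (limma adjusted p = 0.000645) and by 0.94 (limma adjusted p = 7.8e-07) against WT. The other, GRMZM2G146267, was at 16.2, 15.3 and 14.4 RPKM in the same order of groups and was not called in any of the 3 comparisons on the deposited scale; on total reads it was called higher in the libraries labelled nkd1-Ds than in both other groups, but lay only 0.17 above the shifted median of all genes against WT, and nkd2-Ds lay 0.01 above it against the libraries labelled nkd1-Ds.

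The 3 matched chaperone genes of the endoplasmic reticulum, where zeins fold, were higher in both mutant groups than in WT. The list's other calreticulin gene, crt1, and the protein disulfide isomerase gene pdi1 could not be matched. The binding protein gene bip1 was at 148.6 ± 17.7 RPKM in nkd2-Ds, 180.0 ± 9.58 RPKM in the libraries labelled nkd1-Ds and 112.5 ± 5.99 RPKM in WT, with log2 differences from WT of 0.39 and 0.67. bip2 was at 69.0 ± 5.69, 89.5 ± 5.34 and 52.8 ± 3.61 RPKM in the same order of groups, with differences of 0.38 and 0.75. The calreticulin gene crt2 was at 80.9 ± 5.51, 147.4 ± 6.70 and 61.7 ± 2.93 RPKM, with differences of 0.38 and 1.24. These 6 differences were called with limma adjusted p between 4.63e-09 and 0.00400, and each was also called on total reads. All 3 genes were lower in nkd2-Ds than in the libraries labelled nkd1-Ds, by log2 differences of -0.28 for bip1, -0.37 for bip2 and -0.86 for crt2, also called.

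Among the rest of the list, the Opaque2 heterodimerizing factor gene ohp2 was at 4.802 RPKM in nkd2-Ds, 7.23 RPKM in the libraries labelled nkd1-Ds and 5.53 RPKM in WT, and was called higher in the libraries labelled nkd1-Ds than in both other groups. ohp1, at 4.72, 4.804 and 5.16 RPKM, was not called in any comparison on the deposited scale. On total reads it was called higher in the libraries labelled nkd1-Ds than in WT, by 0.37 (limma adjusted p = 0.0270), but stood at -0.06 relative to the shifted median of all genes. The MADS factor gene mads47, at 1.22, 1.999 and 1.35 RPKM, was, like ohp2, called higher in the libraries labelled nkd1-Ds than in both other groups. The B3 factor gene vp1, at 1.64, 0.857 and 1.57 RPKM, was called lower in them than in both other groups, calls lost on total reads, where relative to the shifted median of all genes it lay at -0.61 in them against WT and at 0.61 in nkd2-Ds against them. The protein body membrane and shell genes fl1, at 60.2, 57.4 and 58.1 RPKM, and o10, at 164.2, 145.2 and 147.3 RPKM, were not called in any comparison on the deposited scale. On total reads both were called higher in the libraries labelled nkd1-Ds than in WT, by 0.52 (limma adjusted p = 0.00616) and 0.50 (limma adjusted p = 0.00948). There they lay only 0.09 and 0.07 above the shifted median of all genes.

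**Figure D5:**
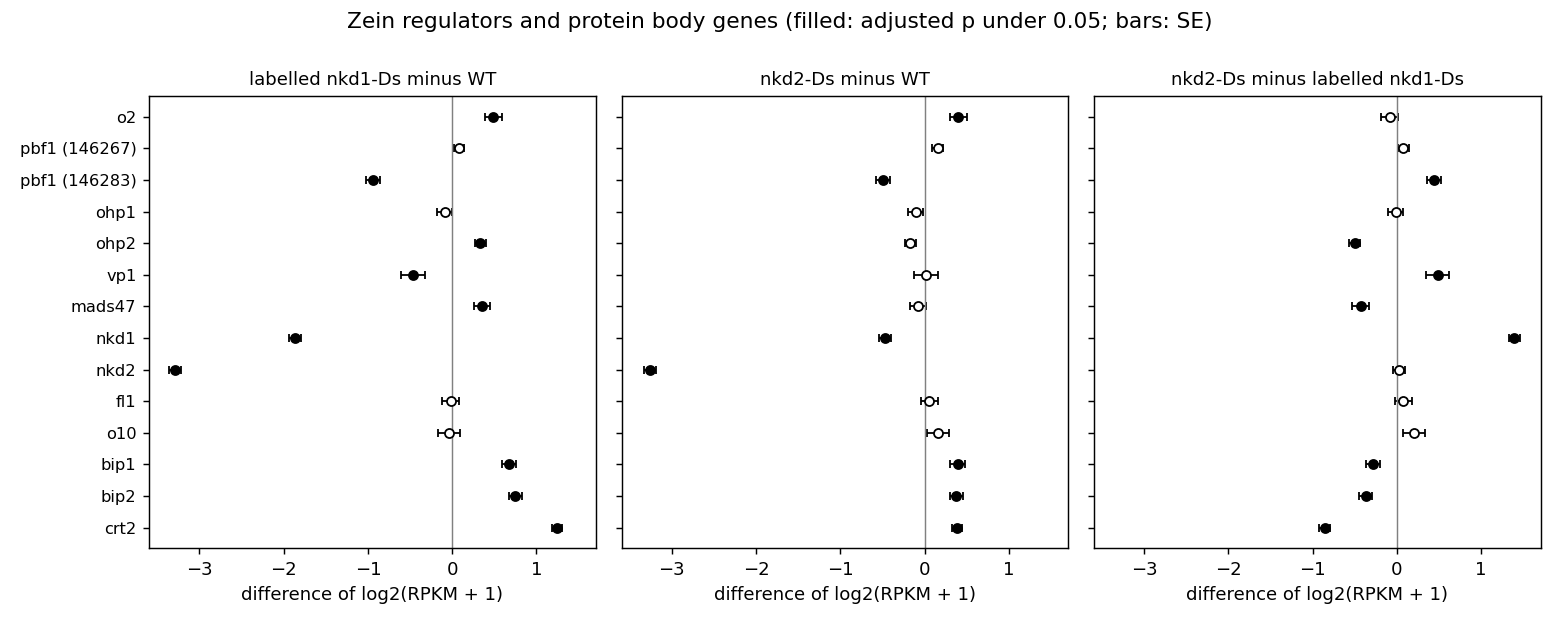
Log2 differences of the 14 genes of the regulator and protein body list, from limma on log2(RPKM + 1). Panels set nkd2-Ds and the libraries labelled nkd1-Ds against WT and against each other. Bars are SE, and filled points have an adjusted p under 0.05. Against WT, o2, bip1, bip2 and crt2 lie above 0 in both mutant groups, and pbf1 (GRMZM2G146283), nkd1 and nkd2 lie below 0 in both.

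The genes whose levels followed each zein most closely were picked by Pearson correlation of log2(RPKM + 1) over the 12 libraries, which share genotype and library scaling, so the correlations are descriptions. For zp15 the closest was GRMZM2G168176 (TIDP3618 in RefSeq), with r = 0.989, followed by GRMZM2G140078 (r = 0.982) and GRMZM2G074373 (r = 0.981). For zp16 they were GRMZM2G458718 (r = 0.988), GRMZM2G075655 (r = 0.968) and GRMZM2G134176 (r = 0.963). For zp27 they were AC195340.3_FG004 (r = 0.961), GRMZM2G066173 (r = 0.948) and GRMZM2G056577 (r = 0.947). GRMZM2G066173 averaged 1.07 RPKM in nkd2-Ds, 0.0633 in the libraries labelled nkd1-Ds and 0.0225 in WT. GRMZM2G056577 averaged 1.23, 0.180 and 0.0887 RPKM in the same order. Both passed the filter on low genes through nkd2-Ds alone and were near 0 in the other groups. For zp50 they were GRMZM2G019317 (r = 0.983), gpm177 (r = 0.965) and pco061337 (r = 0.964). For dzs18 they were GRMZM2G058019 (r = 0.987), the alpha zein z1A1_8 (r = 0.982) and GRMZM2G053781 (r = 0.970). No zein of the 5 was among the 3 closest genes of another.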

How the data were processed

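The deposited tables hold 1 RPKM value per gene and library; the unit was judged from the values, as per the file headers a column carries its sample's name alone. The submitters' processing notes name Cufflinks 2.2.1, TopHat2 2.1.1, FastQC and featureCounts, with no role or order; build, annotation, multi-mapping and strand settings: not given in the sources used here. Libraries were strand-specific and poly(A) selected, per the labels' protocols. Whole reads, lengths and library factors were recovered from the steps between values, for 34307 of 34307 genes above 0 (tolerance 0.02 reads). The authors' library factors, 27.8 to 30.9 megareads in nkd2-Ds, 34.3 to 40.5 in the libraries labelled nkd1-Ds, against 27.3 to 31.1 in WT, are not the read totals, and this moves every difference between groups.

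Groups were taken from the labels. In R 4.3.3, limma 3.58.1 was run with its mean-variance trend on log2(RPKM + 1) for the 26706 genes that averaged 1 RPKM or more in 1 or more groups, with all 12 libraries, genotype as the only factor and Benjamini-Hochberg adjustment over these genes; an adjusted p under 0.05 was a call. This scale understates changes of low genes. Ratios were tested with exact permutation tests (scipy 1.17.1, Python 3.11.15), two-sided, adjusted over 15 tests. Alternatives were another pseudocount, no filter, other scalings, each replicate left out and a replicate block. The steps were tested on simulated data. Between replicates of 1 group the chi-square per gene was 8.04 to 85.9, above sampling noise, and all 12 libraries were kept as separate. Named genes are the 5 zeins, nkd1, nkd2, the matched regulator and protein body list and the 3 genes most correlated with each zein. The members and lists were chosen with earlier results of these data known. Names came from the RefSeq gene table, and its coordinates were used only for the order of genes.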

Additional observations from a re-analysis of the deposited data

Results flagged for a closer look

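In 3 of 51 groups of 4 libraries tested, 1 library stood apart by a gap beyond Dixon's 95% critical value for 4 samples, given as a share of the group's range, which chance alone passes in about 1 of 20 groups. All 3 concerned replicate 1 of nkd2-Ds. The gap was 0.914 of the range for zp15, at 37264 RPKM against 24351 to 25456 RPKM in the other libraries of that group. It was 0.872 of the range for zp27, at 39929 RPKM against 26925 to 28592 RPKM. It was 0.919 of the range for the share of reads of zp16, at 2.201% against 1.85% to 1.88%. Without this library the log2 differences between nkd2-Ds and WT were -0.35 for zp15, -0.25 for zp16, 0.64 for zp27, 0.10 for zp50 and -1.09 for dzs18, and zp27 and dzs18 were still called by limma. Against the libraries labelled nkd1-Ds they were 0.68 for zp15, 0.37 for zp16, 0.55 for zp27, 0.95 for zp50 and -0.07 for dzs18.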

How the results depend on the processing

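Changes in level rest on the deposited library factors, and ratios within a library do not. zp27 in the libraries labelled nkd1-Ds against WT was called higher at 1.37 after quantile normalization, 0.64 on total reads and 0.40 when scaled to RPKM outside the zeins (log2 differences throughout), and zp50 in nkd2-Ds against WT was called higher at 0.42 on total reads and 0.37 outside the zeins. zp16 in the libraries labelled nkd1-Ds against WT lost its call at -0.62 with a pseudocount of 0.1 and without a filter on low values, at -0.071 on total reads and at -0.31 outside the zeins, and turned to 0.27 after quantile normalization. Quantile normalization also ended the calls of zp50 in the libraries labelled nkd1-Ds against WT (-0.16) and of zp15 in nkd2-Ds against the libraries labelled nkd1-Ds (0.12), and turned zp27 in that last comparison to -0.34. Without the filter, calls were lost at unchanged differences for zp27 in nkd2-Ds against WT (0.77) and for zp15 (0.82) and zp27 (0.68) in nkd2-Ds against the libraries labelled nkd1-Ds, the last also with only the 8 libraries compared (0.68). On total reads 4534 genes were called in nkd2-Ds against WT, and 6823 on the deposited scale. The ratio of dzs18 to zp15 in nkd2-Ds against the libraries labelled nkd1-Ds was called at -0.72 with a pseudocount of 1. Quantile normalization sets a value by rank alone, and by group mean zp15, zp16, zp27 and zp50 ranked between 6 and 20. Their quantile differences therefore give moves in rank among the most abundant genes, not sizes of change in level. The causes of the other changes were not tested.

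With 1 library left out, zp16 in the libraries labelled nkd1-Ds against WT ranged from -0.67 to -0.54 (limma adjusted p 0.0101 to 0.0983), zp27 in nkd2-Ds against WT from 0.64 to 0.83 (lost without WT replicate 3) and zp27 in nkd2-Ds against the libraries labelled nkd1-Ds from 0.55 to 0.74 (lost without any 1 of nkd1-Ds replicates 2, 3 and 4). The other calls of single genes held. For ratios, 3 against 4 libraries cannot reach an exact permutation p below 0.0571, so none could be called; over zp27, the differences in the libraries labelled nkd1-Ds against WT were -1.19 to -1.07 for zp15, -0.76 to -0.65 for zp16, -1.01 to -0.90 for zp50 and -1.28 to -1.02 for dzs18. In nkd2-Ds against WT they were -1.04 to -0.93 for zp15, -0.89 to -0.80 for zp16, -0.57 to -0.44 for zp50 and -1.86 to -1.59 for dzs18, and in nkd2-Ds against the libraries labelled nkd1-Ds 0.37 to 0.50 for zp50 and -0.73 to -0.47 for dzs18.

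Replicate numbers did not pair the libraries: deviations of same-numbered libraries correlated between -0.28 and 0.12. With a replicate block, zp16 in the libraries labelled nkd1-Ds against WT (-0.62), zp27 in nkd2-Ds against WT (0.77) and zp27 in nkd2-Ds against the libraries labelled nkd1-Ds (0.68) were not called. With the replicate block, 4 pairs cannot reach an exact permutation p below 0.125, so the ratios over zp27 could not be called either: -1.12, -0.71, -0.94 and -1.12 for zp15, zp16, zp50 and dzs18 in the libraries labelled nkd1-Ds against WT, -0.98, -0.86, -0.52 and -1.70 in nkd2-Ds against WT, and 0.43 and -0.58 for zp50 and dzs18 in nkd2-Ds against the libraries labelled nkd1-Ds.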
